A study of Homo sapiens with 9 samples.

Results

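The plasminogen activators PLAU and PLAT, the urokinase receptor PLAUR, the inhibitor SERPINE2, the tissue inhibitors TIMP1, TIMP2 and TIMP3, and the proteases ADAMTS1 and ADAMTS6 were examined as 1 group of 9 genes that act on the matrix around cells. They were chosen by name with earlier results of these data known, as were the gene lists below. Counts set beside the shares of all probe sets are therefore descriptions and not tests. Each of the 9 genes was read from a probe set paired with exactly 1 gene. Where a gene had 2, as ADAMTS6 did, the probe set with the higher mean over all arrays was used. All 9 were measured, among 14215 genes with such a probe set and 17859 probe sets in all. RNA came from SKOV3, an established human ovarian tumour cell line, and every flask was grown for 3 days in the same medium with serum. There were 3 flasks in each of 3 groups, 1 array per flask: untreated cells, cells given 50 µM peracetylated GlcNAc (Ac-GlcNAc), and cells given 50 µM of the peracetylated analog that lacks the hydroxyl group at carbon 4 (Ac-4-deoxy-GlcNAc). The labels name no vehicle for the untreated flasks, and a single cell line was used. The series asked how gene expression in these cells responds to each sugar.

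Plasminogen activators are serine proteases that cut the zymogen plasminogen into plasmin, which degrades fibrin and matrix proteins and activates other proteases. Urokinase does this largely at the cell surface, bound to its receptor, whereas tissue-type activator works best on fibrin. Serpins such as SERPINE2 trap serine proteases, while TIMPs block matrix metalloproteinases and, in the case of TIMP3, some ADAM and ADAMTS enzymes. ADAMTS proteases are secreted metalloproteinases that cleave proteoglycans and other matrix proteins. In ovarian tumours these systems are studied for their part in invasion. The arrays measured RNA, so protein and protease activity were not analysed here.

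Windows of 250 bases before a RefSeq transcript start (assembly GRCh38.p14) matched 6 of the 9 genes, in 8 windows. Those of PLAU and PLAUR are shown because PLAU was called lower with Ac-4-deoxy-GlcNAc while its receptor was not called. PLAU has 2 windows, and the second, which holds matches, is printed (chr10:73910882-73911131, plus strand). The PLAUR window lies at chr19:43670170-43670419, minus strand. Both run 5′ to 3′ and end at the base before the start, and capitals mark motif matches on either strand.
PLAU: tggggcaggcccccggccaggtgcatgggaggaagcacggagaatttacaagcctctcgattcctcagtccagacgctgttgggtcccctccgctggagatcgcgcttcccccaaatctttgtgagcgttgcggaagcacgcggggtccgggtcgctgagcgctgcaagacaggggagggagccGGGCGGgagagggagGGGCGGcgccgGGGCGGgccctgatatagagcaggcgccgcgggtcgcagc
PLAUR: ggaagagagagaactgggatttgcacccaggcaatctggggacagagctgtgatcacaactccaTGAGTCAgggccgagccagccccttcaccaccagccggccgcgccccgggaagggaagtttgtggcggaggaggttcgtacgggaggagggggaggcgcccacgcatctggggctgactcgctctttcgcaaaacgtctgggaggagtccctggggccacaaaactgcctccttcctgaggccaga
All 5 motifs were searched on both strands, and no 2 matches overlapped in the windows shown. The GC box, spelled GGGCGG, stood 3 times in the PLAU window, from positions -66, -51 and -40 relative to the start. It was found in 42.6% of 35116 such windows in the table. The PLAUR window held 1 match to the AP-1 motif, spelled TGANTCA, from position -186. That motif was found in 6.57% of windows. The first PLAU window (chr10:73910360-73910609) held none of the 5 motifs. The GC box was also in the windows of SERPINE2, TIMP1 and TIMP3. The E-box, spelled CACGTG and found in 6.34% of windows, stood in 1 SERPINE2 window and in that of ADAMTS6. The SMAD motif, spelled CAGACA, was found in 13.6% of windows and in none of the 8. The TATA box, spelled TATAAA, was found in 10.7% of windows and also in none of the 8. A match is a stretch of letters, not a measured binding site.

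With Ac-4-deoxy-GlcNAc, PLAT and ADAMTS1 rose and PLAU fell against untreated cells, and the other 6 genes did not pass the test. The PLAU call was the less stable: it held in 1 of 6 leave-one-out refits, each with 1 compared array dropped, where those of PLAT and ADAMTS1 held in 6 of 6. PLAT was 1.83-fold higher, ADAMTS1 1.44-fold higher and PLAU 1.30-fold lower. A gene was called at an adjusted p under 0.05 in limma, where p-values were adjusted across all 17859 probe sets by Benjamini-Hochberg. The same rule called 11.0% of all probe sets in this comparison, 5.38% higher and 5.64% lower, beside 3 of these 9 genes. A refit on the probe sets above the 50th percentile of mean level called 18.8% of them and 3 of the 7 genes kept. Across the 3 groups, the F test called PLAT and ADAMTS1, 2 of 9 genes, where 8.36% of all probe sets were called. With Ac-GlcNAc, 0 of the 9 genes were called against untreated cells and 0.442% of all probe sets were. At an unadjusted p under 0.05, 2 of the 9 (PLAU and ADAMTS6) passed with Ac-GlcNAc beside 26.4% of all probe sets. The same loose rule passed 5 of 9 with Ac-4-deoxy-GlcNAc beside 31.2%, and 3 of 9 between the compounds beside 13.6%.

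**Figure D1:**
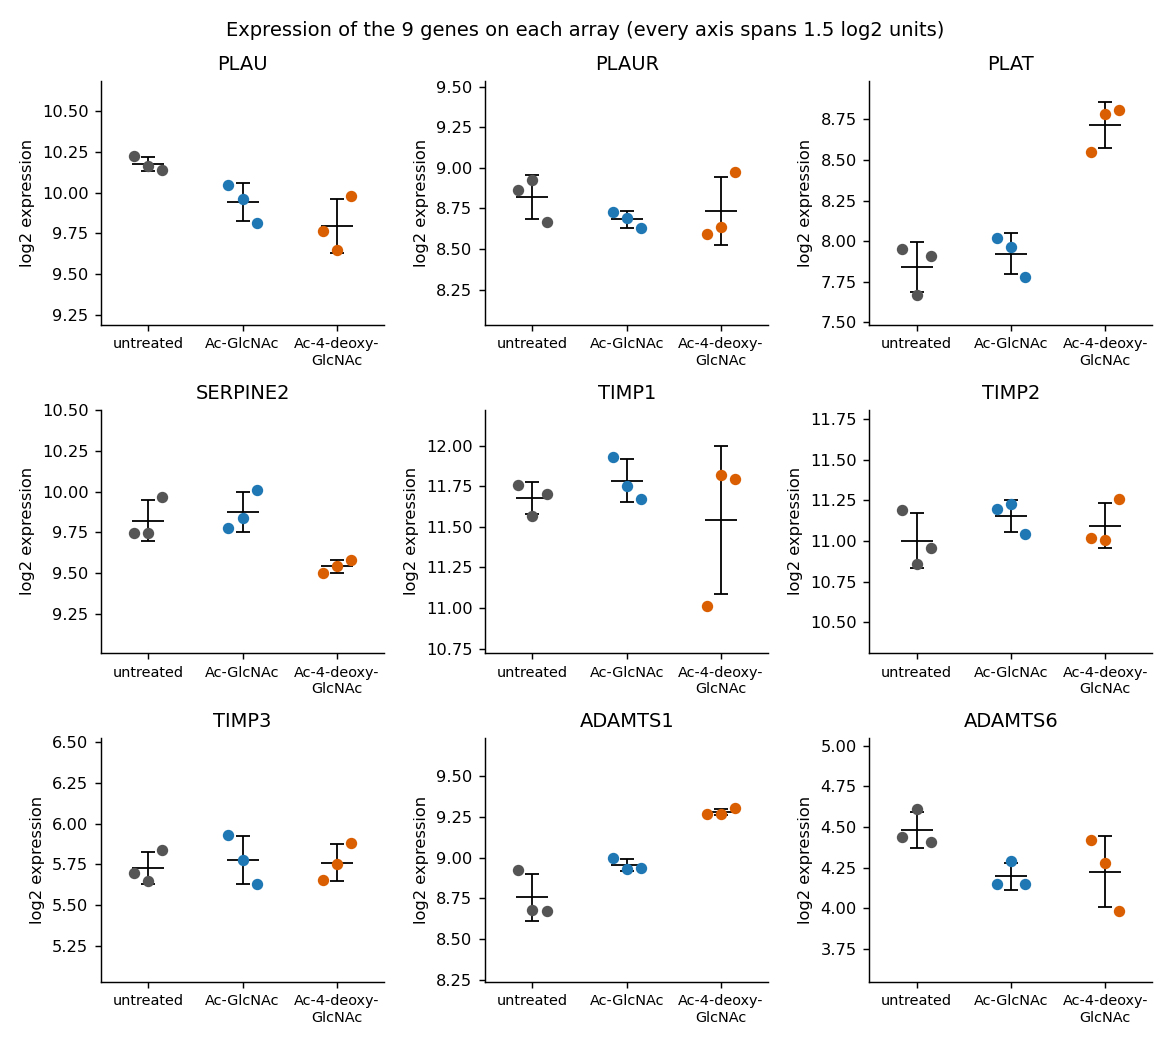
Each panel plots 1 gene, with its log2 expression on the vertical axis (every axis spans 1.5 log2 units) and the 3 groups on the horizontal axis. Points are arrays in the order of replicates 1 to 3, the long bar is the group mean and the whiskers are 1 SD (n = 3). The 3 Ac-4-deoxy-GlcNAc arrays lie above all other arrays for PLAT and ADAMTS1 and below all others for SERPINE2, and 1 Ac-4-deoxy-GlcNAc array lies apart for TIMP1.

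The arrays had medians between 6.58 and 6.65, and their SD over probe sets ran from 1.92 on untreated replicate 2 to 2.18, with 2.07 or more on all arrays but that one. Of 12 measured markers of epithelial and ovarian tumour cells, 11 lay above the median probe set in every group. With Ac-4-deoxy-GlcNAc 1 of the 12 was called higher (CDH1, 0.45) and 2 lower (KRT7, -0.46, and KRT19, -0.49). Over all probe sets 5.38% were called higher and 5.64% lower. Under leave-one-out the higher and lower marker counts ran 0 to 1 and 0 to 2. The array means of 9 fibroblast markers were 5.83 to 5.99 in untreated cells, 5.53 to 5.64 with Ac-GlcNAc and 5.47 to 5.49 with Ac-4-deoxy-GlcNAc. With Ac-4-deoxy-GlcNAc 5 of the 9 were called lower (3 to 5 with 1 array left out), beside 5.64% of all probe sets. That share was not matched for level, and marker counts under other array scalings are not given here. Of these 9 markers, 3 lay above the median probe set in untreated cells and 2 in each treated group. The 8 endothelial markers ranged as array means from 4.81 to 5.14, and the 8 leukocyte markers from 5.10 to 5.49. Of these, PECAM1 was called higher (0.41) and CD68 lower (-0.37) with Ac-4-deoxy-GlcNAc, each 1 of 8, beside 11.0% of all probe sets. CD68 was called in 0 of 6 leave-one-out refits and PECAM1 in 4, not without Ac-4-deoxy-GlcNAc replicate 1 or 3. Between the compounds CDH1 (0.55) and KDR (0.36) were called higher and CLDN4 (-0.74) and COL1A1 (-0.56) lower, beside 2.38% of all probe sets. Leave-one-out kept CDH1 and CLDN4 in 2 of 6 refits each, COL1A1 in 5 and KDR in 0. With Ac-GlcNAc none of the markers was called. Array values have no true zero, and the part of these markers in the results was not tested. The labels name 1 cell line and no other cell type, so the marker levels do not count fibroblasts, endothelial cells or leukocytes. In RNA from whole cultures, fewer SKOV3 cells expressing a gene and less of its RNA per cell cannot be told apart.

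PLAT, tissue-type plasminogen activator, had log2 levels of 7.95, 7.67 and 7.91 on the untreated arrays. With Ac-GlcNAc they were 8.02, 7.97 and 7.78. With Ac-4-deoxy-GlcNAc they were 8.55, 8.79 and 8.80. The untreated and Ac-GlcNAc arrays overlapped, and the Ac-4-deoxy-GlcNAc arrays all lay above both. The mean was 8.71 ± 0.14 (SD, n = 3) with Ac-4-deoxy-GlcNAc and 7.84 ± 0.15 untreated, a log2 difference of 0.87 (SE 0.11, 95% interval 0.63 to 1.11, adjusted p = 0.000905). Against Ac-GlcNAc, at 7.92 ± 0.13, the difference was 0.79 (SE 0.11, 0.55 to 1.03, adjusted p = 0.00329), or 1.73-fold. Ac-GlcNAc itself differed from untreated cells by 0.081 (-0.16 to 0.32, adjusted p = 0.659), which did not pass. PLAT was the 1 gene of the 9 called between the compounds, given at the same dose and time, where 2.38% of all probe sets were called and 0.896% were called higher. It stayed called whichever of the 6 compared arrays was dropped (leave-one-out), both against untreated cells (0.78 to 0.95) and against Ac-GlcNAc (0.72 to 0.87).

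PLAU, urokinase, had log2 levels of 10.23, 10.16 and 10.14 on the untreated arrays. With Ac-GlcNAc they were 10.05, 9.96 and 9.82, and with Ac-4-deoxy-GlcNAc 9.76, 9.65 and 9.98. Every treated array lay below every untreated array, while the treated groups overlapped each other. The fall with Ac-4-deoxy-GlcNAc was from 10.18 ± 0.043 (SD, n = 3) to 9.80 ± 0.17, a log2 difference of -0.38 (SE 0.11, 95% interval -0.61 to -0.15, adjusted p = 0.036). Under leave-one-out this call held in 1 of 6 refits, the one from which Ac-4-deoxy-GlcNAc replicate 3 was dropped (-0.47, adjusted p = 0.0364). In the other 5, without untreated replicate 1, 2 or 3 or Ac-4-deoxy-GlcNAc replicate 1 or 2, the difference ran from -0.40 to -0.31 and the adjusted p from 0.057 to 0.106. It also ended on the 6 compared arrays alone (adjusted p = 0.0743), with array SD as a covariate (0.0923), and when untreated replicate 2 was dropped together with Ac-4-deoxy-GlcNAc replicate 1 (0.115). The Ac-GlcNAc difference was -0.24 (-0.46 to -0.0086, adjusted p = 0.177), which did not pass. Between the compounds PLAU differed by -0.15 (-0.37 to 0.081, adjusted p = 0.662), so a difference between their effects on it was not shown. A second probe set names PLAU together with C10orf55, which overlaps it, and gave -0.30 with Ac-4-deoxy-GlcNAc (-0.59 to -0.019, adjusted p = 0.138).

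PLAUR, the cell-surface receptor that binds urokinase, had untreated levels of 8.86, 8.93 and 8.67. Its levels were 8.73, 8.69 and 8.63 with Ac-GlcNAc, and 8.60, 8.64 and 8.97 with Ac-4-deoxy-GlcNAc. The 3 groups overlapped. The log2 difference was -0.14 with Ac-GlcNAc (-0.38 to 0.11, adjusted p = 0.451) and -0.084 with Ac-4-deoxy-GlcNAc (-0.33 to 0.16, adjusted p = 0.635). Between the compounds it was 0.051 (-0.20 to 0.30, adjusted p = 0.948). These intervals hold changes of either sign.

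SERPINE2, protease nexin 1, is a serpin that inhibits thrombin, urokinase and plasmin. On the untreated arrays it stood at 9.75, 9.75 and 9.97, and with Ac-GlcNAc at 9.78, 9.84 and 10.01. With Ac-4-deoxy-GlcNAc it stood at 9.50, 9.55 and 9.58, below all 6 other arrays. The difference was -0.28 against untreated cells (SE 0.10, 95% interval -0.50 to -0.064, adjusted p = 0.0847) and -0.34 against Ac-GlcNAc (SE 0.10, -0.55 to -0.12, adjusted p = 0.11), and neither passed. A set of 3 settings moved the first past the threshold: array weights (-0.35, adjusted p = 0.0271), cyclic loess (-0.35, 0.0212) and quantile normalization (-0.34, 0.0236). Array weights did the same for the second (-0.29, adjusted p = 0.0438). Ac-GlcNAc differed from untreated cells by 0.055 (-0.16 to 0.27, adjusted p = 0.742).

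**Figure D2:**
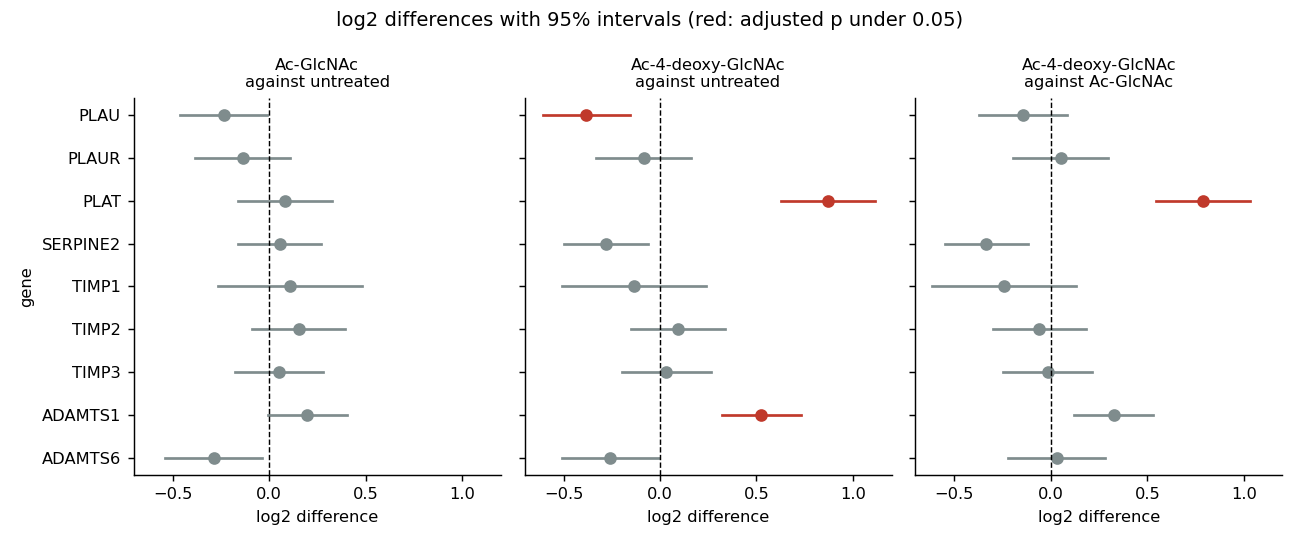
The log2 difference of each gene (points, horizontal axis) is plotted with its 95% interval (lines) in the 3 comparisons, 1 per panel, with genes on the vertical axis and red for an adjusted p under 0.05. Red marks PLAT at 0.87, ADAMTS1 at 0.53 and PLAU at -0.38 in the middle panel and PLAT at 0.79 in the right panel, and no gene in the left panel.

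The TIMPs are secreted inhibitors that bind the active site of metalloproteinases, and none of the 3 was called in any comparison. TIMP1 stood at 11.76, 11.57 and 11.70 untreated, at 11.93, 11.75 and 11.67 with Ac-GlcNAc, and at 11.01, 11.82 and 11.79 with Ac-4-deoxy-GlcNAc. Ac-4-deoxy-GlcNAc replicate 1 thus lay below all other arrays, and the SD in that group was 0.46 against 0.099 untreated and 0.13 with Ac-GlcNAc. The difference from untreated cells was -0.13 (SE 0.17, 95% interval -0.51 to 0.24, adjusted p = 0.618) and turned to 0.13 (adjusted p = 0.465) without that array. Against Ac-GlcNAc it was -0.24 (-0.62 to 0.13, adjusted p = 0.658), and 0.021 without the same array. TIMP1 overlaps SYN1 in the RefSeq annotation.

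TIMP2, which also takes part in the activation of pro-MMP2 at the cell surface, had untreated levels of 11.19, 10.86 and 10.96. They were 11.20, 11.23 and 11.04 with Ac-GlcNAc and 11.02, 11.01 and 11.26 with Ac-4-deoxy-GlcNAc, and all 3 groups overlapped. Its differences from untreated cells were 0.15 with Ac-GlcNAc (-0.088 to 0.40, adjusted p = 0.384) and 0.093 with Ac-4-deoxy-GlcNAc (-0.15 to 0.33, adjusted p = 0.591). Between the compounds TIMP2 differed by -0.061 (-0.30 to 0.18, adjusted p = 0.928). CEP295NL overlaps TIMP2 in the RefSeq annotation.

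TIMP3, the matrix-bound member of the family, lay at 5.70, 5.64 and 5.84 untreated, at 5.93, 5.78 and 5.63 with Ac-GlcNAc, and at 5.65, 5.75 and 5.88 with Ac-4-deoxy-GlcNAc. No group stood apart. Its probe set ranked at percentile 39.5 of mean level among all probe sets. The differences were 0.050 with Ac-GlcNAc (-0.18 to 0.28, adjusted p = 0.784), 0.034 with Ac-4-deoxy-GlcNAc (-0.20 to 0.26, adjusted p = 0.849) and -0.017 between the compounds (-0.25 to 0.21, adjusted p = 0.987). TIMP3 lies within SYN3, and a probe set naming both gave -0.014 with Ac-4-deoxy-GlcNAc (-0.23 to 0.20, adjusted p = 0.934).

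ADAMTS1, a secreted protease that cleaves versican and aggrecan, had log2 levels of 8.92, 8.68 and 8.67 on the untreated arrays. They were 9.00, 8.93 and 8.94 with Ac-GlcNAc and 9.27, 9.27 and 9.30 with Ac-4-deoxy-GlcNAc. The 3 groups did not overlap one another, with untreated arrays lowest and Ac-4-deoxy-GlcNAc arrays highest. From 8.76 ± 0.14 (SD, n = 3) untreated to 9.28 ± 0.019 with Ac-4-deoxy-GlcNAc the rise was 0.53 (SE 0.095, 95% interval 0.32 to 0.73, adjusted p = 0.00569), and leave-one-out kept it called in 6 of 6 refits (0.48 to 0.61). The step to Ac-GlcNAc, at 8.96 ± 0.038, was 0.20 (-0.0066 to 0.40, adjusted p = 0.202) and did not pass, and it was 0.082 with cyclic loess, 0.085 with quantile normalization and 0.12 with array SD as a covariate. Between the compounds ADAMTS1 differed by 0.33 (SE 0.095, 0.12 to 0.53, adjusted p = 0.0992), which did not pass. That difference passed with array weights (0.31, adjusted p = 0.0209), cyclic loess (0.38, 0.0302), quantile normalization (0.37, 0.0337) and on the 6 compared arrays alone (0.33, 0.0496).

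ADAMTS6, a member of the same family that acts on fibrillin-rich matrix, had values of 4.44, 4.61 and 4.41 untreated. With Ac-GlcNAc they were 4.15, 4.29 and 4.15, all below the untreated arrays. With Ac-4-deoxy-GlcNAc they were 4.42, 4.28 and 3.99, which overlapped both groups. Its probe set ranked at percentile 12.1 of mean level among all probe sets, and signal over background was not analysed here. The differences were -0.29 with Ac-GlcNAc (-0.54 to -0.038, adjusted p = 0.147), -0.26 with Ac-4-deoxy-GlcNAc (-0.51 to -0.0077, adjusted p = 0.149) and 0.030 between the compounds (-0.22 to 0.28, adjusted p = 0.974), and none passed. The differences from untreated cells depended on the scaling of the arrays. With Ac-GlcNAc that of ADAMTS6 was -0.064 with cyclic loess, -0.047 with quantile normalization and -0.038 with array SD as a covariate, and with Ac-4-deoxy-GlcNAc -0.078, -0.069 and -0.083. The other probe set of ADAMTS6 gave -0.23 for each compound against untreated cells (adjusted p = 0.22 and 0.201).

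The 9 genes had a median log2 difference of 0.055 with Ac-GlcNAc, beside -0.017 over all probe sets. It was -0.084 with Ac-4-deoxy-GlcNAc beside -0.051, and -0.017 between the compounds beside 0.0031. These values over all probe sets are also the reference for the medians of the gene lists below, which were not matched for level. The median over all probe sets depended on level. Above the 50th percentile of mean level, where 7 of the 9 genes lie, it was 0.10, 0.054 and -0.046 in the 3 comparisons. The arrays of the compared groups did not overlap for 3 of the 9 genes with Ac-GlcNAc (PLAU, ADAMTS1 and ADAMTS6), where the same held for 32.3% of all probe sets. With Ac-4-deoxy-GlcNAc this held for 4 genes (PLAU, PLAT, SERPINE2 and ADAMTS1) and 32.1% of probe sets. Between the compounds it held for 3 (PLAT, SERPINE2 and ADAMTS1) and 21.2%. The 2 comparisons with untreated cells share their control arrays.

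**Figure D3:**
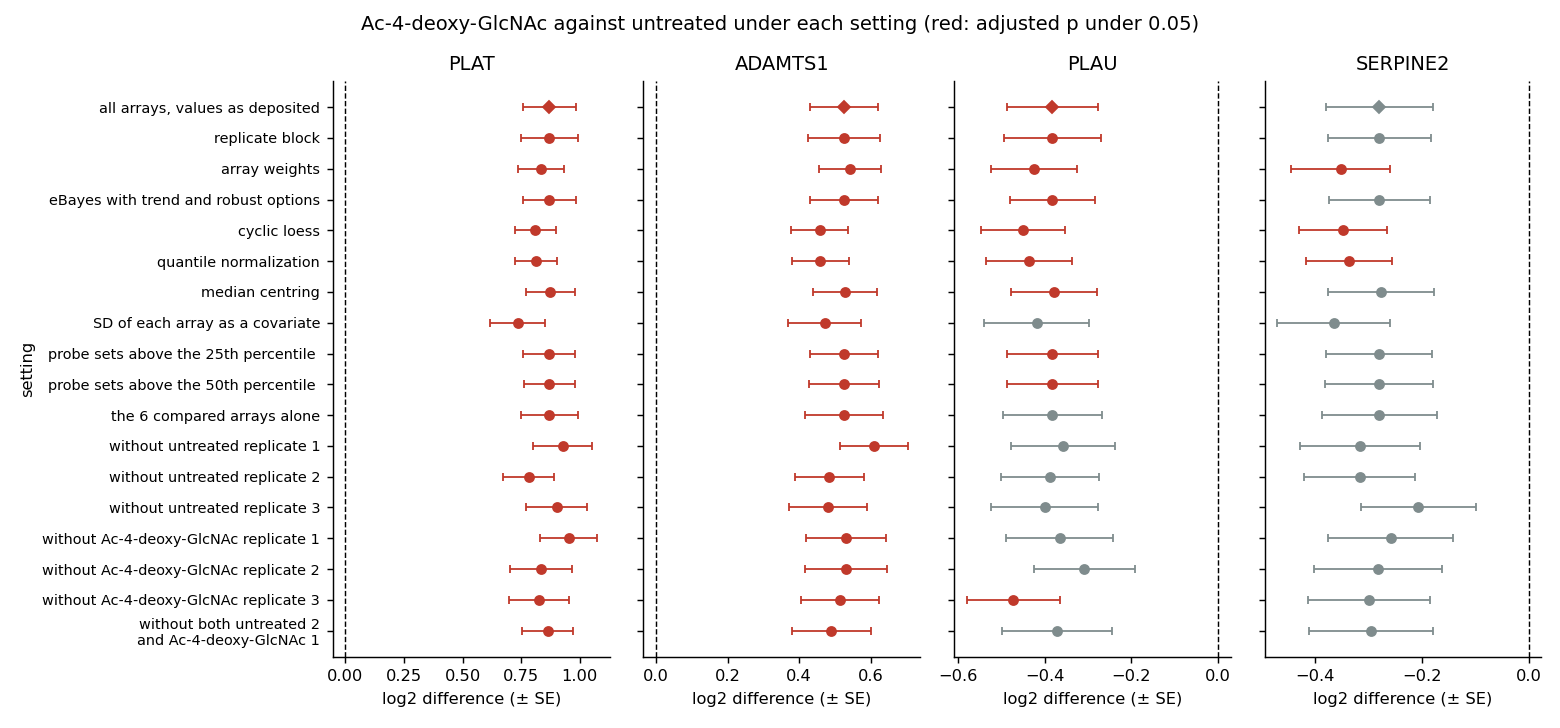
Each panel shows 1 gene, with its log2 difference for Ac-4-deoxy-GlcNAc against untreated cells (horizontal axis, ± SE) under each setting named on the vertical axis. The diamond is the value as reported and red marks an adjusted p under 0.05. PLAT and ADAMTS1 are red in all rows, PLAU loses its call in 8 of the 17 other settings and SERPINE2 gains one in 3.

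Beside the members, 19 other genes of the plasminogen system were listed and 14 measured. With Ac-4-deoxy-GlcNAc 1 of these 14 was called, beside 11.0% of all probe sets. SERPINI1, neuroserpin, a brain serpin that inhibits tissue-type activator, fell by 0.76 (SE 0.10, adjusted p = 0.00118). Leave-one-out kept this call in 6 of 6 refits. Its probe set mean was low, at 4.25 (percentile 11), near that of ADAMTS6, whose differences depended on array scaling. The value of SERPINI1 under other array scalings is not given here. The list medians were -0.085, -0.13 and -0.022 in the 3 comparisons. Neither ANXA2 nor S100A10, which together bind plasminogen and its tissue-type activator at the cell surface, was called, with differences of 0.16 (SE 0.12) and -0.19 (SE 0.11). LRP1, which clears activators bound to serpins, differed by -0.095 (SE 0.095). With Ac-GlcNAc 0 of 14 were called, and SERPINI1 had the smallest p, at -0.49 (SE 0.10, adjusted p = 0.0576). Without untreated replicate 1 the number called lower was 2 with Ac-GlcNAc and 2 with Ac-4-deoxy-GlcNAc, and in the other 5 refits of each comparison it was 0 and 1. Between the compounds 0 of 14 were called.

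Thrombin, which SERPINE2 inhibits, signals through protease-activated receptors. Of 9 measured genes of that pathway and its anticoagulant partners, Ac-4-deoxy-GlcNAc lowered 4 and raised 0 (leave-one-out range for the lower ones 2 to 4), beside 5.64% of all probe sets called lower. THBD, thrombomodulin, fell by 0.58 (SE 0.11, adjusted p = 0.00645) and F2RL2, the receptor PAR3, by 0.55 (SE 0.11, adjusted p = 0.0105), and both kept their calls in 6 of 6 leave-one-out refits. F2R, the main thrombin receptor PAR1, fell by 0.42 (SE 0.10, adjusted p = 0.025). Its call ended, with an adjusted p of up to 0.0789, when untreated replicate 3 or Ac-4-deoxy-GlcNAc replicate 1 or 3 was dropped. The fourth was TFPI2, a matrix-bound protease inhibitor, at -0.33 (SE 0.098, adjusted p = 0.044), a call that held only without untreated replicate 1 or 2. Between the compounds 3 of the 9 were called lower, beside 1.48% of all probe sets. THBD and F2RL2 were also lower than with Ac-GlcNAc, by 0.65 and 0.69 on the log2 scale (adjusted p = 0.0073 and 0.0069), and so was TFPI2 (-0.47, adjusted p = 0.0238), which held only without Ac-4-deoxy-GlcNAc replicate 2. With Ac-GlcNAc 0 of the 9 were called against untreated cells. Over the list the median difference was 0.066 with Ac-GlcNAc, -0.16 with Ac-4-deoxy-GlcNAc and -0.16 between the compounds.

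Of 21 other ADAMTS and ADAMTS-like genes, Ac-4-deoxy-GlcNAc raised 3 and lowered 0, beside 5.38% of all probe sets called higher. The same 3 were higher than with Ac-GlcNAc, beside 0.896%. ADAMTS15, which cleaves versican and aggrecan, rose by 0.61 (SE 0.10, adjusted p = 0.00401) and kept its call in 6 of 6 leave-one-out refits. ADAMTS14, a procollagen amino-propeptidase, rose by 0.43 (SE 0.097, adjusted p = 0.016), a call that ended when Ac-4-deoxy-GlcNAc replicate 1 or 3 was dropped. ADAMTS5, an aggrecanase, rose by 0.41 (SE 0.11, adjusted p = 0.0296) and was called only without untreated replicate 1 or Ac-4-deoxy-GlcNAc replicate 2. With 1 array left out, 1 to 4 genes of the list were higher. Against Ac-GlcNAc the differences of ADAMTS5, ADAMTS14 and ADAMTS15 were 0.50, 0.47 and 0.43 (adjusted p = 0.0256, 0.0221 and 0.0473), and with 1 array left out 0 to 2 of them were called: ADAMTS5 only without Ac-4-deoxy-GlcNAc replicate 2, ADAMTS14 only without that array or Ac-GlcNAc replicate 2, and ADAMTS15 in 0 of 6. The list had medians of -0.083 with Ac-GlcNAc, where 0 were called, -0.025 with Ac-4-deoxy-GlcNAc and 0.11 between the compounds.

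Targets of the TIMPs were measured through 25 genes for matrix metalloproteinases and their regulators, of which Ac-4-deoxy-GlcNAc lowered 5 and raised 0 (4 to 6 lower under leave-one-out), beside 5.64% of all probe sets called lower. The largest falls were in MMP1, MMP7 and MMP10, by 1.09, 0.87 and 0.70 on the log2 scale, each called in 6 of 6 leave-one-out refits. MMP10 had a mean level of 5.18 (percentile 30.5). Values of these 3 genes under other array scalings are not given here. MMP1, the interstitial collagenase, was also called with Ac-GlcNAc (-0.64, adjusted p = 0.0494), a call that held only without untreated replicate 1. That refit called 4 genes of the list lower with Ac-GlcNAc, and the other 5 called 0 or 1. MMP2 was lower than with Ac-GlcNAc (-0.46, adjusted p = 0.0314), a call that held only without Ac-4-deoxy-GlcNAc replicate 3. TIMP4 and RECK, the other secreted and the membrane-anchored inhibitor, differed with Ac-4-deoxy-GlcNAc by -0.11 (SE 0.11) and 0.14 (SE 0.094), and neither was called. Median differences over the list were -0.13, -0.16 and -0.0094 in the 3 comparisons, beside -0.017, -0.051 and 0.0031 over all probe sets.

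TIMP3 can inhibit some members of the ADAM family, the membrane relatives of ADAMTS enzymes. Of 15 listed ADAM genes, 11 were measured and 4 were only on probe sets shared with other genes. ADAM10 and ADAM17 were not among the 11. Ac-4-deoxy-GlcNAc raised 1 of the 11 and lowered 2, beside 11.0% of all probe sets called in either direction. Which of the 11 are active proteases, and which TIMP3 inhibits, was not examined. ADAM23 stood at 0.36 (adjusted p = 0.0407), ADAM19 at -0.32 (0.046) and ADAM22 at -0.32 (0.0384), and with 1 array left out ADAM23 was called only without untreated replicate 3, ADAM22 only without untreated replicate 1, and ADAM19 only without untreated replicate 2 or Ac-4-deoxy-GlcNAc replicate 2. None was called with Ac-GlcNAc or between the compounds, and the smallest p was that of ADAM22 with Ac-GlcNAc (-0.29, adjusted p = 0.097) and of ADAM20 between the compounds (0.53, adjusted p = 0.119). The list medians were -0.11, -0.11 and -0.0083 in the 3 comparisons.

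Of 10 matrix substrates of ADAMTS enzymes, 1 rose and 1 fell with Ac-4-deoxy-GlcNAc, beside 11.0% of all probe sets called in either direction. LTBP1, which anchors latent TGF-beta, fell by 0.55 (SE 0.10, adjusted p = 0.00708), a call kept in 6 of 6 leave-one-out refits. NID2, a basement membrane linker, rose by 0.44 (SE 0.099, adjusted p = 0.0158), a call that ended when Ac-4-deoxy-GlcNAc replicate 3 was dropped (adjusted p = 0.0778). VCAN, the versican core protein, differed by -0.13 (SE 0.098) and was not called. FBN2, a fibrillin, was higher than with Ac-GlcNAc by 0.43 (adjusted p = 0.0389), called only without Ac-4-deoxy-GlcNAc replicate 2 among the 6 fits. Over these 10 genes the medians were -0.13, -0.11 and -0.079 in the 3 comparisons.

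AP-1 and ETS factors bind the regulatory regions of many protease genes. Of 9 measured, JUNB was called lower with Ac-4-deoxy-GlcNAc (-0.60, SE 0.12, adjusted p = 0.00863), also in 6 of 6 leave-one-out refits, and 0 were higher, beside 5.64% of all probe sets called lower. JUNB was also lower than with Ac-GlcNAc (-0.54, adjusted p = 0.0314), called only without Ac-GlcNAc replicate 3 or Ac-4-deoxy-GlcNAc replicate 2 among the 6 fits. FOSL1, JUN and ETS2 differed from untreated cells by -0.063 (SE 0.13), -0.027 (SE 0.11) and 0.15 (SE 0.11) with Ac-4-deoxy-GlcNAc. None of these 3 was called, and 0 of the 9 were called with Ac-GlcNAc. The list medians were 0.052, -0.063 and -0.18.

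**Figure D4:**
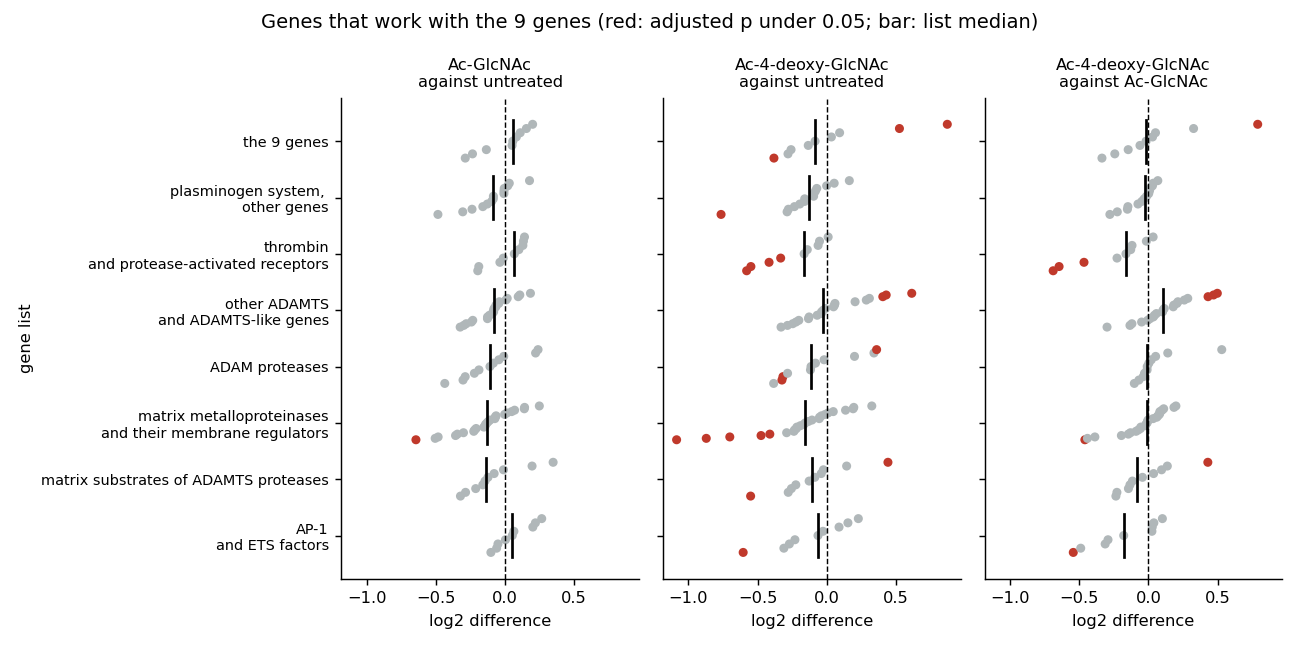
Each point is a gene, placed by its log2 difference (horizontal axis) within its list (vertical axis), in the 3 comparisons, 1 per panel. Red marks an adjusted p under 0.05 and the bar is the list median. In the middle panel the 4 red points of the thrombin list lie below 0 and the 3 of the ADAMTS list above 0, while the left panel holds 1 red point, MMP1.

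The genes whose pattern over the 9 arrays was nearest to that of PLAT and ADAMTS1 were found by the root mean square difference of log2 values, after each gene's own mean over the arrays was subtracted, among 14214 other genes. For PLAT they were DHCR7 (0.093), MVK (0.099) and PNPLA3 (0.10), against an SD of 0.43 for PLAT itself. All 3 were called higher with Ac-4-deoxy-GlcNAc than in untreated cells, by 0.70, 0.69 and 0.95, and were also called against Ac-GlcNAc. For ADAMTS1 they were SLC11A2 (0.043), CHRNA5 (0.046) and MALT1 (0.059), against an SD of 0.24. These 3 were higher than in untreated cells by 0.48, 0.49 and 0.54 and were not called between the compounds, as was the case for ADAMTS1. All these genes share the same arrays and their shifts, and the search picked the nearest, so no test was made.

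**Figure D5:**
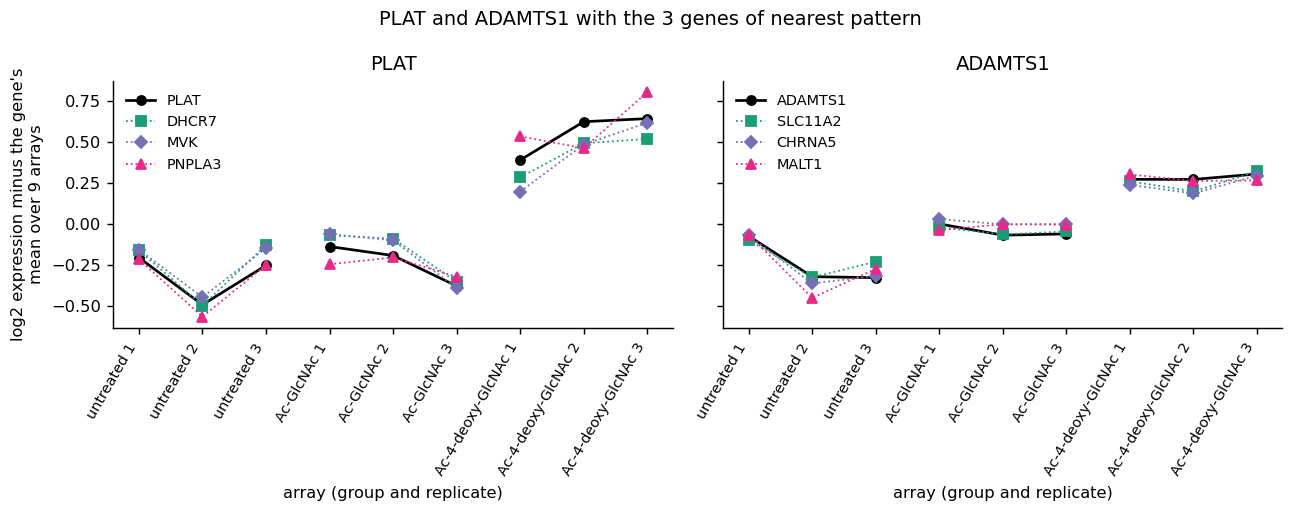
The log2 expression of PLAT (left) and ADAMTS1 (right) and of the 3 genes nearest to each is plotted on every array, minus each gene's mean over the 9 arrays (vertical axis, log2 units). Lines join the arrays of a group and do not mark an order. All 4 genes of the left panel dip on untreated replicate 2 and stand highest on the Ac-4-deoxy-GlcNAc arrays, and all 4 of the right panel have their middle values on the Ac-GlcNAc arrays.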

How the data were processed

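Expression was measured on 9 arrays. The authors deposited log2 values; the submitters' processing notes name RMA, Partek and hg18. Versions, settings and filters are not given in the sources used here, and no scanner files were used. Probe sets were named from the platform annotation: 14413 of 17859 named 1 gene. The members and gene lists were chosen with earlier results of these data known. These values entered limma (version 3.58.1, R 4.3.3) unchanged: lmFit modelled all 9 arrays by group, leaving 6 residual degrees of freedom, and eBayes followed. Tests were two-sided, and p-values were adjusted (Benjamini-Hochberg) across the 17859 probe sets. For arrays, their number limits the precision: the median SE was 0.11. From each other list, up to 3 called genes with the largest difference were named, or the gene with the smallest p; TFPI2 against untreated cells, ANXA2, S100A10, LRP1, TIMP4, RECK, VCAN, FOSL1, JUN and ETS2 were added after their values were seen. The fit was tested on simulated arrays. Groups and replicate numbers come from the sample titles. The labels state separate flasks and no batch.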

Additional observations from a re-analysis of the deposited data

How the results depend on the processing

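PLAT kept its direction and call against untreated cells and against Ac-GlcNAc, and ADAMTS1 against untreated cells, in all alternatives run. With Ac-GlcNAc 0 members were called in all of them. With Ac-4-deoxy-GlcNAc 2 to 3 were called with 1 array left out, and between the compounds 1 in each such fit. Between the compounds 3 members were called with array weights, and 2 with cyclic loess, quantile normalization and the 6 compared arrays alone. The F test called 4 members with array weights, trend and robust options, cyclic loess, quantile normalization and above the 50th percentile of mean level, 1 when untreated replicate 2 was dropped together with Ac-4-deoxy-GlcNAc replicate 1, and 1 to 2 with 1 array left out. It called PLAT alone without Ac-4-deoxy-GlcNAc replicate 3. The cause of these changes was not tested.

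Signs turned only for differences that were not called. With Ac-GlcNAc, PLAT became -0.026 with cyclic loess, -0.018 with quantile normalization, -0.11 with array SD as a covariate and -0.0071 without the 2 arrays named above, and ran from -0.0071 to 0.15 with 1 array left out. SERPINE2 became -0.067 with array weights, -0.063 with cyclic loess and with quantile normalization and -0.067 with the SD covariate (-0.013 to 0.13 with 1 array left out). TIMP1 became -0.0028 with cyclic loess and -0.16 with the SD covariate, which also took TIMP2 to -0.018 and TIMP3 to -0.061. TIMP3 ran from -0.025 to 0.13 with 1 array left out and was -0.13 on the probe set shared with SYN3.

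With Ac-4-deoxy-GlcNAc, leaving out both arrays took PLAUR to 0.039 and TIMP1 to 0.075, and TIMP1 ran from -0.27 to 0.13 with 1 left out. The SD covariate took TIMP2 to -0.027 and TIMP3 to -0.044. TIMP3 was -0.033 with array weights, -0.014 on the shared probe set and -0.026 to 0.089 with 1 array left out. Between the compounds, PLAU was 0.027 on the probe set shared with C10orf55, and PLAUR -0.011 with array weights and -0.067 to 0.12 with 1 array left out. TIMP1 was 0.021 without both arrays and -0.38 to 0.021 with 1 left out. TIMP3 was 0.012 with median centring, 0.017 with the SD covariate, 0.038 without both arrays, 0.12 on the shared probe set and -0.091 to 0.059 with 1 left out. ADAMTS6 was -0.014 with cyclic loess, -0.022 with quantile normalization, -0.045 with the SD covariate, -0.066 without both arrays and -0.066 to 0.15 with 1 left out.

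The labels link same-numbered arrays by the number alone. Correlations of their deviations from the group means ran from -0.245 to 0.369. For Ac-GlcNAc against untreated cells they were 0.142, 0.0499 and 0.369. Whether same-numbered flasks were handled together was not tested. With the replicate number as a block, 0, 3 and 1 members were called in the 3 comparisons and 2 by the F test, and the calls over all probe sets went from 79 to 324, from 1968 to 2207 and from 425 to 432. Of the 6 arrays in each comparison, 4, 1 and 0 correlated best with the array of their own number. Deviations from a group mean are tied to each other, so these matches are not independent. The counts to be found without any pairing were not worked out. Over all alternatives with the same contrast, the calls over all probe sets ran from 2 to 1760, from 596 to 3076 and from 141 to 1187. Those of the F test, 1493 as reported, ran from 490 to 2905. No fit on the 6 compared arrays was possible for the F test. The filters on mean level dropped ADAMTS6, and that at the 50th percentile also TIMP3. The same alternatives for the other gene lists were added after the data were seen.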
